A study of Homo sapiens with 8 samples.

Results

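The binding sites of HIF-1β in PC-3 cells were set against those in A549 cells. PC-3 is an established prostate cancer cell line and A549 an established lung cancer cell line. Both were kept at 0.5% ambient oxygen for 16 h, and chromatin was precipitated with an antibody to HIF-1β, 2 libraries for each line (replicates 1 and 2 of PC-3, replicates 2 and 3 of A549). The files were lists of peaks, which are stretches of the genome called as enriched in the precipitated DNA, each with a score. A site of a line was a merged region that held overlapping peaks (1 bp or more) from each of its replicates. This gave 970 sites in PC-3 and 1041 in A549, and these sets merged into 1606 regions, of the 3840 regions with a site in any of the 4 lines of the series. Of these, 405 (25.2%) held a site of both lines, 565 (35.2%) a PC-3 site without an A549 site, and 636 (39.6%) an A549 site without a PC-3 site. They are called shared, PC-3-only and A549-only regions here, whatever T47D and HCT-116 cells, the other lines of the series, showed. Libraries of cells at normal oxygen were not analysed here, so a site says where HIF-1β was found in hypoxia and not whether hypoxia brought it there.

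HIF-1β is the constant partner in the hypoxia-inducible factors. It pairs with HIF-1α or HIF-2α, whose protein is destroyed when oxygen is plentiful, and the pair binds a short DNA element with the core RCGTG (R is A or G) at promoters and enhancers. The best known targets encode glycolytic enzymes, glucose and lactate transporters, oxygen sensors, histone demethylases and secreted growth factors. HIF-1β also partners the aryl hydrocarbon receptor and other factors of the same family, so that a HIF-1β peak does not name the partner.

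Sequences are shown for 6 regions on which the comparison turns, 1 at the shared region with the highest scores, 2 at PC-3-only regions and 3 at A549-only regions. Each window is 81 bases of the plus strand of GRCh37 around the core match nearest to the middle of the region. Capitals mark RCGTG or its reverse complement. They lie at the start of GPI (chr19:34850325-34850405), 126145 bp upstream of VOPP1 (chr7:55766784-55766864), at an internal promoter of HK1 (chr10:71078633-71078713), 12956 bp upstream of DDIT4 (chr10:74020738-74020818), at the start of CA9 (chr9:35673869-35673949) and just upstream of CITED2 (chr6:139696538-139696618).
GPI: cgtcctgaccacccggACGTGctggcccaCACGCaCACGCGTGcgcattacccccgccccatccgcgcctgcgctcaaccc
VOPP1: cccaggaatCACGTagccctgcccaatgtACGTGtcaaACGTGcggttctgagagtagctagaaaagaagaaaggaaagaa
HK1: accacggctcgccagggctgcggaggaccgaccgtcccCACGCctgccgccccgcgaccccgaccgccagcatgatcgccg
DDIT4: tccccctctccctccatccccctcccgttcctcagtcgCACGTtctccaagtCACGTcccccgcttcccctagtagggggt
CA9: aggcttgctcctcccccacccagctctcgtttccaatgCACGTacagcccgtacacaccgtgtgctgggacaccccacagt
CITED2: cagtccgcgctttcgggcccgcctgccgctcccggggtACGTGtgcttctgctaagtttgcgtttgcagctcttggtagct
The GPI window held 4 matches, 2 of which overlap each other, and the VOPP1 window 3. The DDIT4 window held 2, and the HK1, CA9 and CITED2 windows 1 each.

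The 4 libraries differed in how many peaks they held, and the PC-3 libraries most. PC-3 replicate 1 had 1042 peaks and PC-3 replicate 2 had 2891, while A549 replicates 2 and 3 had 1768 and 1270. As a result, 93.2% of the peaks of PC-3 replicate 1 met a peak of replicate 2, but only 33.6% of those of replicate 2 met a peak of replicate 1, and PC-3 sites were set mainly by replicate 1. In A549 these shares were 59% and 82%. The files gave no read counts, sequencing depth is thus unknown, and its part in these counts was not tested. Nothing in the labels says that the replicates were separate cultures, so the spread between them may be technical. Peak lists hold no expression, and the line labels could not be checked against marker genes.

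Most sites of either line were not shared. In PC-3, 405 of 970 sites (41.8%, 95% exact binomial interval 38.6 to 44.9) overlapped an A549 site, and in A549 405 of 1041 (38.9%, 35.9 to 41.9) overlapped a PC-3 site. Such intervals cover counting error only, since sites of one library are not replicates. For A549 the balance turned without PC-3 replicate 1, when 613 regions were shared and 428 were A549-only. The line-only regions were mostly far from any site of the other line: the median distance to the nearest one was 651185 bp for PC-3-only and 592709 bp for A549-only regions, and only 33 (5.84%) and 62 (9.75%) lay within 25 kb of one. Counting sites within 1 kb of each other as shared left 404 shared regions.

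Whether a line-only region was empty in the other line depended on the line. Of the 565 PC-3-only regions, 85 (15%) overlapped a peak of A549 replicate 2 alone, 35 (6.19%) a peak of A549 replicate 3 alone, and 445 (78.8%, 75.2 to 82.1) no A549 peak. Of the 636 A549-only regions, 208 (32.7%) overlapped a peak of PC-3 replicate 2 alone, 5 (0.786%) a peak of PC-3 replicate 1 alone, and 423 (66.5%, 62.7 to 70.2) no PC-3 peak. The single peaks in the longer PC-3 list were not confined to its weakest entries: at those 208 regions their median score rank was the 50.3rd percentile of PC-3 replicate 2 (quartiles 27 and 70). Single peaks in A549 replicate 2 at PC-3-only regions ranked lower in their own list, at a median percentile of 31.2. Hence "A549-only" means a region without a peak in both PC-3 replicates, and 213 of them carried a PC-3 peak in one of the replicates.

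The 3 classes lay at different distances from genes. A promoter region here is one whose edge lies within 2 kb of the start of a protein-coding gene, the start being the outermost one of the gene in the annotation. Promoters made up 157 of the 405 shared regions (38.8%, 34 to 43.7), 171 of the 565 PC-3-only regions (30.3%, 26.5 to 34.2) and 96 of the 636 A549-only regions (15.1%, 12.4 to 18.1). With the starts of all protein-coding transcripts in place of gene starts, which adds internal promoters such as those of HK1 and PGK1, the shares were 49.6%, 37.7% and 21.4%. The order of the classes was the same by either count of starts. Shared regions were thus nearest to promoters, PC-3-only regions came next, and A549-only regions were the most distal. Region width fell in the same order, with medians of 1535, 1355 and 1171 bp, and its part in these shares was not tested.

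**Figure D1:**
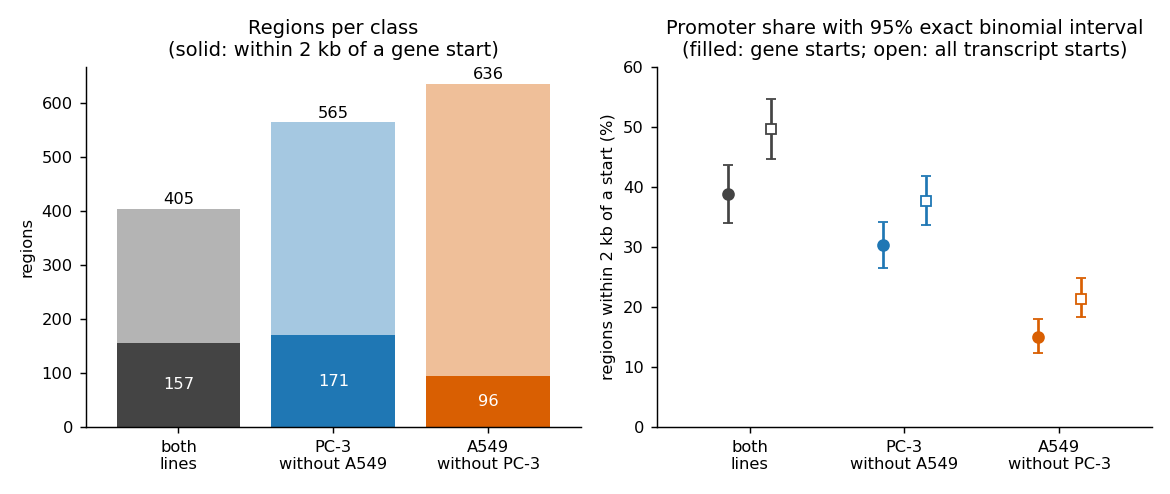
Number of regions in each class (left, solid part within 2 kb of a protein-coding gene start) and percentage of regions within 2 kb of a start (right, circles for gene starts, squares for all transcript starts, bars for the 95% exact binomial interval). The share falls from 38.8% in shared to 30.3% in PC-3-only and 15.1% in A549-only regions.

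The distance from the centre of a region to the nearest gene start gave the same order. Its median was 9977 bp in shared regions (quartiles 506 and 52819), 19829 bp in PC-3-only regions (1027 and 71555) and 38204 bp in A549-only regions (10636 and 114788). More than 100 kb from any gene start lay 15.1% of shared, 20.4% of PC-3-only and 27.8% of A549-only regions. Region centres fell in exons of protein-coding genes in 17.8%, 14.7% and 7.23% of regions, in introns in 37%, 37% and 42%, and between genes in 45.2%, 48.3% and 50.8%. The base composition of the central 200 bp followed, with a median GC content of 61%, 55% and 51.2%. CpG dinucleotides in the region numbered 32.6, 20.2 and 15.4 per kb at the median.

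**Figure D2:**
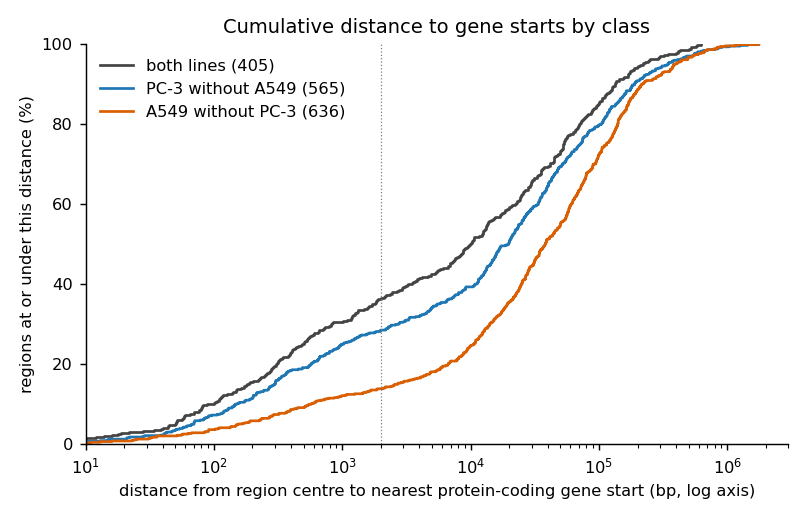
Cumulative percentage of regions against the distance from the region centre to the nearest protein-coding gene start (log axis, distances under 10 bp drawn at 10 bp, dotted line at 2 kb), one line per class. The A549-only line runs below the others from the promoter range outward, and the medians are 9977, 19829 and 38204 bp.

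The same contrast was seen in each library when its own peaks were taken. Among all peaks, 32.9% and 30.2% lay at promoters in PC-3 replicates 1 and 2, and 23.2% and 24.3% in A549 replicates 2 and 3. The lines did not overlap in this measure. Among peaks that met no peak of either library of the other line, promoters made up 26.5% and 28.3% in PC-3 but 13% and 11.1% in A549. Among peaks that met peaks of both libraries of the other line, the 4 shares were close: 38.5% and 34.3% in PC-3 and 38.3% and 38.8% in A549. The fall from shared to unshared peaks was thus 12.1 and 5.98 percentage points in the PC-3 libraries and 25.2 and 27.6 in the A549 libraries. The median distance of unshared peaks from a gene start was 22263 and 23365 bp in PC-3 against 42370 and 49820 bp in A549. An exact permutation test over the 4 libraries (two-sided, 6 divisions) gave p = 0.33 for each of 5 such measures, also after Benjamini-Hochberg adjustment. That is the smallest p that 2 libraries against 2 allow, so the test cannot reach the usual threshold.

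Regions without any peak in the other line differed most. Promoters made up 120 of 445 such PC-3-only regions (27%, 22.9 to 31.3) and 37 of 423 such A549-only regions (8.75%, 6.23 to 11.9). With transcript starts the shares were 34.6% and 14.7%. Line-only regions with a peak in 1 library of the other line stood nearer to the shared regions in this respect: 51 of 120 in PC-3 (42.5%) and 59 of 213 in A549 (27.7%) were promoters.

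For comparison, scores were turned into ranks within each library. Raw scores are printed for named regions, but the scale may differ between libraries, so they do not compare the lines. The rank percentile of a peak is the share of the other peaks of its library that score lower, and a region takes its best peak. Shared regions ranked higher than line-only regions in all 4 libraries. The median percentile of shared against line-only regions was 67.7 against 43 in PC-3 replicate 1 and 89.4 against 76.9 in PC-3 replicate 2. In A549 it was 75.9 against 65 in replicate 2 and 70.8 against 51.9 in replicate 3. The spread within a class was wide, and the quartiles of the classes overlapped in every library. Shared regions were also the widest at the median, and the part of width in these ranks was not tested. Taking every pair of 1 shared and 1 line-only region, the shared one ranked higher in 0.689 and 0.712 of pairs in PC-3 and in 0.626 and 0.671 in A549. Of the regions in the top 10% of a list, 75.2% and 66.4% were shared in PC-3 replicates 1 and 2, and 61.6% and 74.8% in A549 replicates 2 and 3.

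**Figure D3:**
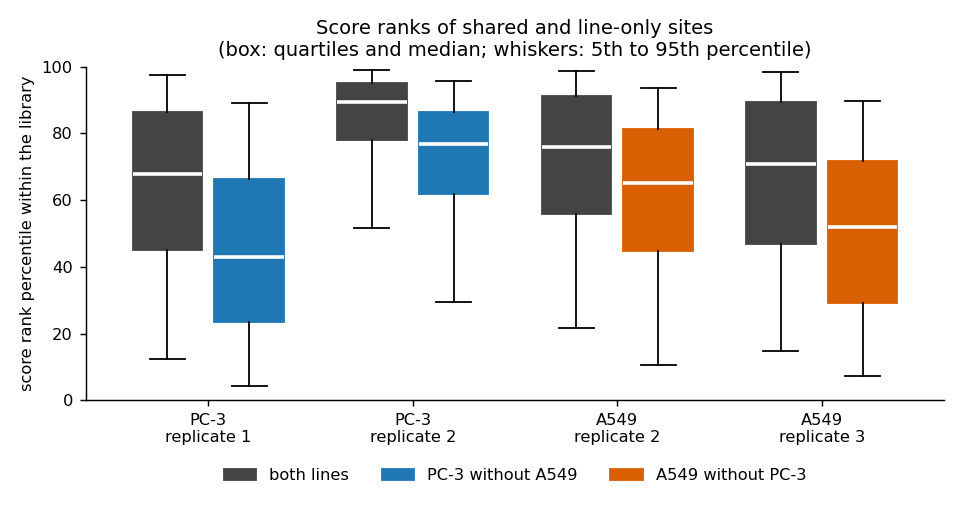
Score rank percentile of the best peak of each region within each library, for shared regions (grey) and for the line-only regions of that line (blue, PC-3; orange, A549). Boxes give quartiles and median, whiskers the 5th and 95th percentiles, and the shared median is higher in all 4 libraries.

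Sharing fell along the ranks of each line. When the sites of a line were ordered by their mean percentile over both replicates and cut into 5 bins of equal size, the shared portion in PC-3 was 70.6%, 47.9%, 41.2%, 27.3% and 21.6% from the highest to the lowest bin. In A549 it was 63.9%, 40.9%, 35.6%, 29.3% and 24.9%. The promoter portion of the line-only sites went the other way. It was 15.8% in the highest and 38.8% in the lowest bin of PC-3, and 9.33% and 22.3% in A549. Line-only sites were mostly distal in every bin of both lines. With transcript starts the 4 promoter values were 22.8%, 47.4%, 20% and 26.8%, and the lowest in A549 was 14.6%, in bin 2. At transcript starts the lines therefore differed little in the highest bin, which held 57 PC-3-only and 75 A549-only sites. Among shared sites, by gene starts, promoters made up 40.9% in the highest and 21.4% in the lowest bin of PC-3. In A549 these shares were 29.3% and 46.2%, so there the rise was not particular to line-only sites.

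**Figure D4:**
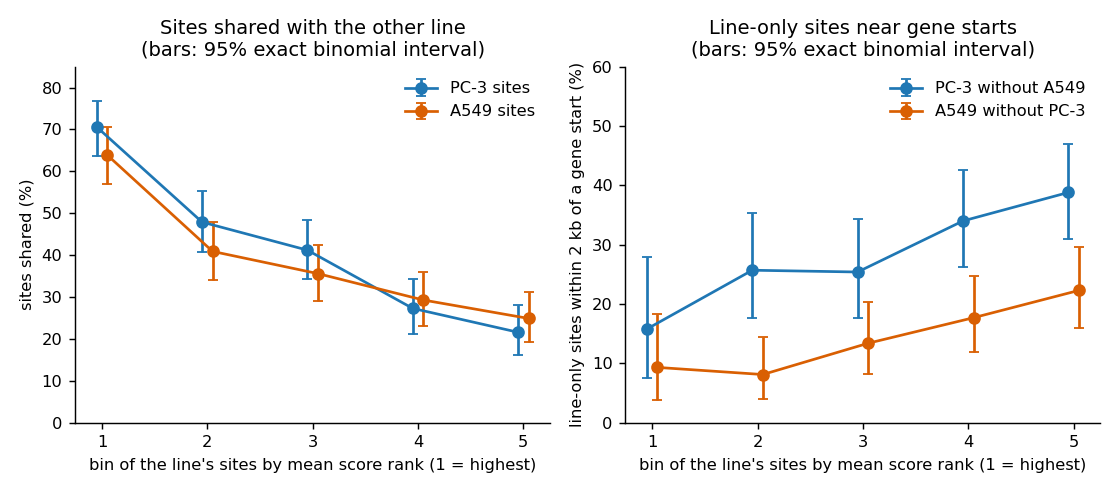
Percentage of the sites of a line that were shared (left) and percentage of its line-only sites within 2 kb of a gene start (right), by bin of the sites in order of mean score rank (5 bins of equal size, 1 being the highest), with 95% exact binomial intervals. Sharing falls from 70.6% to 21.6% in PC-3 and from 63.9% to 24.9% in A549. The promoter percentage is lowest in bin 1 of PC-3 (15.8%) and in bin 2 of A549 (8.13%).

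The 10 shared regions with the highest mean percentile had as nearest gene start GPI, ENO1, SNAPC1, NARF, KDM3A, NDRG1, ANKRD37, GAPDH, FAM174B and SLC16A3. GPI, ENO1 and GAPDH encode glycolytic enzymes, KDM3A a histone demethylase and SLC16A3 the lactate exporter of glycolytic cells. The GPI region, whose sequence is given above, scored 3100 in both A549 libraries and 2037 and 3100 in PC-3 replicates 1 and 2. The region nearest to SNAPC1 began 908 bp beyond the end of HIF1A, the gene of the α partner itself, and scored 2248 and 1430 in A549 and 1960 and 3059 in PC-3. The NDRG1 region lay 73772 bp upstream of that stress-response gene and scored 1789 and 1344 in A549 and 1547 and 2406 in PC-3.

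The highest-ranked PC-3-only regions were of another kind. The 10 in order were nearest to VOPP1, SULF1, OR1I1, CALB1, BLCAP, JUN, DUSP12, KCNS1, ACOT6 and ZNF511, and only those of CALB1 and ACOT6 were promoters. The VOPP1 region, 126145 bp upstream of the gene between genes on chromosome 7, scored 1183 in PC-3 replicate 1 and 3148 in replicate 2, with no peak in either A549 library. The score of 3148 was the highest of its list. The shared regions of GPI, ENO1 and ANKRD37 each scored 3100 in that list, which is also the highest score of both A549 lists. Whether the scores are capped there was not tested, so the order among the highest scores is uncertain. A region in an intron of SULF1, which encodes a sulfatase that trims heparan sulfate outside the cell, scored 1126 and 2093. One at CALB1, the gene of the calcium-binding protein calbindin, lay 302 bp upstream of the start and scored 846 and 1548. The region 28356 bp from JUN, an AP-1 subunit, scored 692 and 1073. It also carried a peak of A549 replicate 2, with a score of 89, and the DUSP12 region a peak of A549 replicate 3, with a score of 67.6. The other 8 had no A549 peak.

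Among A549-only regions the highest lay at DDIT4, KLHDC4, DNAH17, SLC45A1, PPP1R3C, NPY4R, WDR72, PMEPA1, SH2D4B and PON1, of which only those of PPP1R3C and SH2D4B were promoters. DDIT4 encodes an inhibitor of the growth kinase complex mTORC1 and is a well known hypoxia gene. Its region 12956 bp upstream scored 2267 and 1238 in A549 replicates 2 and 3, at percentiles 99.7 and 98.7, and held no PC-3 peak. The promoter region of the same gene was shared, with scores of 587 and 406 in A549 and 81.5 and 243 in PC-3, and another region 23871 bp downstream was A549-only, with 683 and 367 and a PC-3 replicate 2 peak of 139. The DDIT4 locus was thus bound in both lines at its promoter, and the strongest A549 region there had no counterpart in PC-3. PPP1R3C, whose product brings protein phosphatase 1 to glycogen, had a region 226 bp upstream of its start, with scores of 855 and 797. The regions of DNAH17, NPY4R and PMEPA1 carried a peak of PC-3 replicate 2, with scores of 63.5, 94.1 and 54.4. NPY4R has a near-identical copy on the same chromosome, and the reads behind its region may be hard to place.

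The highest-ranked line-only promoters are named here after their values were seen. Without any A549 peak, the highest PC-3-only promoters after CALB1 and ACOT6 were those of MIB2 (scores 328 and 438), PRR7 (279.6 and 536) and SPAG4 (209 and 658). Without any PC-3 peak, the highest A549-only promoters after PPP1R3C and SH2D4B were those of PDE10A (732 and 385), a phosphodiesterase gene, and CYREN (392 and 242). The 10 highest regions of each class were named first, so these promoters rank below them by choice. Their mean percentiles were 93.5 for PDE10A, 86.9 for CYREN and between 89.5 and 91.7 for the 3 PC-3 genes.

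Shared regions also differed in rank between the lines. In 132 of the 405, both PC-3 replicates ranked the region above both A549 replicates, in 61 both A549 replicates ranked it above both PC-3 replicates, and in 212 the ranks overlapped. Promoters made up 67 (50.8%) of the first set, 11 (18%) of the second and 79 (37.3%) of the third. The lists ranked here hold 1042 to 2891 peaks, most sites of both replicates rank high in the longest (PC-3 replicate 2), and its part in these counts was not tested. Among the largest shifts toward PC-3 were those at MORN5, PTPRN, AL590560.1 and CTDP1, of 73.1, 65, 61.7 and 60.8 percentile points. Toward A549, the largest was 108812 bp upstream of PLEKHG7, at percentiles 96.3 and 89.8 in A549 and 13.2 and 52.8 in PC-3. NDRG1, PIM1, FRMD8 and AKAP12 followed, with shifts of -56.6, -52.8, -50 and -47.3. The NDRG1 region of this group, 54783 bp upstream, lies beside the strongly bound shared region 73772 bp upstream, so that neighbouring elements of one locus stood differently in PC-3 and A549.

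Gene by gene, most hypoxia genes were reached by both lines. A gene was counted for a line when a site of that line lay in it or within 25 kb of either end. Of 20163 protein-coding genes, 675 (3.35%) had a site of both lines, 752 (3.73%) of PC-3 only and 537 (2.66%) of A549 only. Of 75 genes in 5 hypoxia lists, 48 (64%) had a site of both, 3 (4%) of PC-3 only, 7 (9.33%) of A549 only and 17 (22.7%) of neither. VEGFA and EPAS1 were among those with neither. The share with a site of both lines stood above the 3.35% of all genes. The share with a PC-3 site only was near the 3.73%, and that with an A549 site only stood above the 2.66%. Of the 1964 protein-coding genes with a site of either line, however, 752 had one of PC-3 only and 537 of A549 only. Beside the 48 hypoxia genes with a site of both, the 3 and 7 of a single line were thus a smaller part. The lists hold genes known to be HIF targets in other cells, so a high share in both lines is not evidence about these lines alone.

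The glycolytic and glucose genes were nearly all shared: 22 of 26 had a site of both lines, 1 of PC-3 only, 1 of A549 only and 2 of neither. LDHA, lactate dehydrogenase, scored 1761 and 1051 at its start in A549 and 756 and 2354 in PC-3. PDK1, the kinase that holds back pyruvate dehydrogenase, scored 963 and 1017 in A549 and 1163 and 2564 in PC-3. The exceptions were HK1 and ENO2. HK1, the general hexokinase, had a PC-3 site 56 bp from an internal transcript start, with scores of 399 and 843 (percentiles 92.7 and 97.2), and no peak in either A549 library. HK2, the hypoxia-inducible hexokinase, had a shared promoter site, at percentiles 95.7 and 97.8 in PC-3 and 50.5 and 69.7 in A549. ENO2, the neuronal enolase, had an A549 site at its start with scores of 141 and 99.4 (percentiles 67.1 and 51.9). PC-3 replicate 2 had a peak there as well, with a score of 211 (percentile 83.3), and PC-3 replicate 1 had none.

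**Figure D5:**
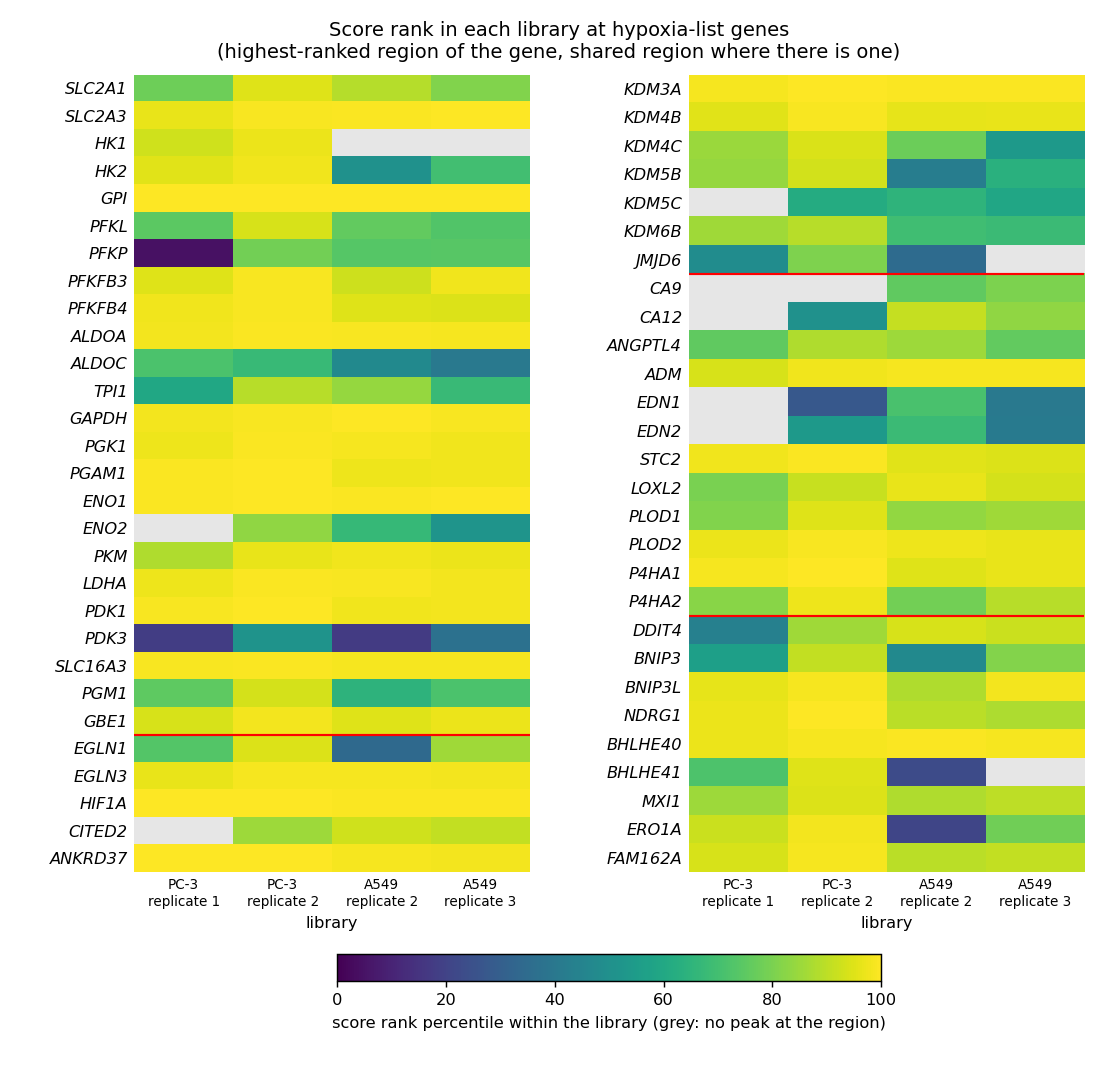
Score rank percentile in each of the 4 libraries at 57 hypoxia-list genes with a site of either line, for the highest-ranked region of the gene or, where there is one, of its shared regions (grey, no peak at that region; red lines separate lists, with glycolysis and oxygen sensing on the left, and demethylases, secreted and stress genes on the right). Most rows are high in all 4 columns, and the grey cells lie at HK1, ENO2, CITED2, KDM5C, JMJD6, CA9, CA12, EDN1, EDN2 and BHLHE41.

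Of the genes of oxygen sensing and HIF feedback, 4 of 11 had a site of both lines (EGLN1, EGLN3, HIF1A and ANKRD37), none of PC-3 only, 1 of A549 only and 6 of neither. EGLN1 and EGLN3 encode prolyl hydroxylases that mark HIF-α for destruction. CITED2, which encodes a competitor of HIF-α for its coactivators, was the A549-only gene. Its region 639 bp upstream scored 518 and 377 in A549 (percentiles 92.9 and 90.9), and PC-3 replicate 2 had a peak of 238 there, at percentile 85.4. Of 8 histone demethylase genes, 5 were shared, JMJD6 had a PC-3 site only and KDM5C an A549 site only. The JMJD6 region lay 23237 bp from the gene, at an MXRA7 transcript start, and carried an A549 replicate 2 peak of 72.5. That at KDM5C scored 135 and 115 in A549, and PC-3 replicate 2 had a peak of 108.

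The genes of pH control, secreted and angiogenic factors and collagen-modifying enzymes held most of the genes with an A549 site only. Of 18, 9 had a site of both lines, none of PC-3 only, 4 of A549 only and 5 of neither. CA9 and CA12 encode membrane carbonic anhydrases that set the pH outside hypoxic cells. The CA9 promoter region, 24 bp from the start, scored 189.6 and 208 in A549 and held no PC-3 peak in either replicate, although a second region 15454 bp from the gene carried a PC-3 replicate 2 peak of 60.9. A region inside CA12 scored 445 and 245 in A549, with a PC-3 replicate 2 peak of 88.7. EDN1, the gene of endothelin-1, had a region 16408 bp from the gene with 162 and 80.2, and 65.1 in PC-3 replicate 2. Its relative EDN2 had a site of each line in separate regions. All 7 hypoxia genes with an A549 site only had a peak of PC-3 replicate 2 at 1 or more of their regions, so that none remained A549-only when a peak of either replicate sufficed, while 7 were then PC-3-only. Among the 3 genes with a PC-3 site only, JMJD6 and BHLHE41 carried a peak of A549 replicate 2, and HK1 alone had none.

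Among stress, mitophagy and repressor genes, 8 of 12 had a site of both lines, 1 of PC-3 only, none of A549 only and 3 of neither. BNIP3 and BNIP3L, receptors for the removal of mitochondria, and BHLHE40, a transcriptional repressor, were shared. BHLHE41, the relative of BHLHE40, had a PC-3 site 639 bp upstream of its start with scores of 149 and 555 and an A549 replicate 2 peak of 62.4. The pair thus differed in class. The shared BHLHE40 promoter region ranked high in all 4 libraries, at percentiles 99.8 and 99.4 in A549 and 95.8 and 98.7 in PC-3.

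Shared genes often had further regions of one line. A549-only regions lay near SLC2A3, PFKP, PFKFB3, LDHA, EGLN3, KDM4C, ANGPTL4, LOXL2 and DDIT4, and PC-3-only regions near HK2, PFKP, ANKRD37, ANGPTL4, P4HA2 and NDRG1. EGLN3 held 2 shared regions and 2 A549-only regions, 1 of them with scores of 965 and 468 and no PC-3 peak. PFKP, the platelet phosphofructokinase, held 1 region of each class: a shared one in an intron, a PC-3-only one 104 bp from an internal transcript start with scores of 52.5 and 379 and an A549 replicate 3 peak of 57.8, and an A549-only one with 122 and 165. Over all protein-coding genes, 39 of the 675 with a site of both lines had no region that the lines shared.

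Lists outside the HIF pathway held smaller shares of genes with a site than the hypoxia lists. Of all protein-coding genes 1964 (9.74%) had a site of either line, against 58 of the 75 hypoxia genes, 2 of 7 target genes of the aryl hydrocarbon receptor (28.6%), 5 of 20 of NRF2 (25%) and 6 of 19 matrix, adhesion and mesenchymal genes (31.6%). Of 7 target genes of the aryl hydrocarbon receptor, CYP1B1 had a shared site, NFE2L2 an A549 site only, with a PC-3 replicate 2 peak of 59, and 5 none. Of 20 target genes of NRF2, the regulator of the antioxidant response that NFE2L2 encodes, TXNRD1 was shared, and GCLC, HMOX1, AKR1C3 and FTH1 had an A549 site only (20%, against 2.66% of all genes). GCLC makes glutathione, HMOX1 breaks down haem, AKR1C3 reduces steroids and carbonyls, and FTH1 stores iron. PC-3 replicate 2 had a peak at the regions of GCLC (115) and HMOX1 (62.6) and none at those of AKR1C3 and FTH1. None of the 20 had a PC-3 site only. The A549 scores were modest: 126 and 62.9 at GCLC, 145 and 69.8 at HMOX1, and 224 and 86 at FTH1. At AKR1C3, which belongs to a cluster of near-identical genes, the higher region scored 290.3 and 234. Of 19 matrix, adhesion and mesenchymal genes, CAV1 and TGFBI were shared, FOSL1, JUN and ITGB4 had a PC-3 site only (15.8%, against 3.73% of all genes) and AXL an A549 site only. A549 replicate 2 had a peak at the regions of JUN (89) and ITGB4 (67.9), PC-3 replicate 2 had one at that of AXL (74.1), and FOSL1 had none of the other line. FOSL1 and JUN encode AP-1 subunits.

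Marker genes of the tissues of origin did not sort by line. Of 13 prostate genes, SLC45A3 had a PC-3 site, TRPM8 and KRT8 an A549 site and 10 none. Of 15 lung and airway genes, MUC1, MUC5AC and MUC5B had a PC-3 site and 12 none. MUC5AC and MUC5B were reached by the same region. A site near a gene says nothing about its expression, and these counts do not bear on the identity of the lines.

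The HIF core was common in all classes. RCGTG, on either strand, stood in the central 200 bp of 77.3% of shared regions (72.9 to 81.3), 69.9% of PC-3-only (65.9 to 73.7) and 67.8% of A549-only regions (64 to 71.4). In windows 5 kb to each side it stood in 22.3% to 24.4%, and in 200 bp windows at all protein-coding gene starts in 42.7%. The form ACGTG followed the same order, with 62%, 53.1% and 49.8%, and so did GCGTG, with 37.3%, 31.9% and 28.6%. The classes differ in promoter content, however. In regions over 2 kb from every protein-coding transcript start, RCGTG stood in 77.9%, 66.8% and 67.2%, and GCGTG in 30.4%, 22.4% and 25.2%. In the regions nearer to one, RCGTG stood in 76.6%, 75.1% and 69.9%, and GCGTG in 44.3%, 47.4% and 41.2%. ACGTG kept the order in both sets, RCGTG only near starts, and GCGTG in neither. The excess of shared over line-only regions depended on which peaks were taken. When the lists were cut to the higher-scoring 50% of peaks, RCGTG stood in 72.2% of 212 shared and 73.5% of 653 line-only regions, and with the 1000 highest-scoring peaks of each list in 74.8% of 302 and 68.8% of 894. A match says only that the letters are there, not that HIF was bound to them.

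Base composition differs between promoters and distal regions, so the other motifs were compared among regions over 2 kb from every protein-coding transcript start (204 shared, 352 PC-3-only and 500 A549-only). The AP-1 element TGANTCA stood in 30.9%, 27.3% and 27.8% of them, against 5.15% to 5.82% in the flanking windows, and the intervals of the classes overlapped. The element TGACNNNGC, which NRF2 and its partners bind, stood in 10.8% (6.88 to 15.9), 9.94% (7.02 to 13.6) and 16% (12.9 to 19.5). In the flanking windows it stood in 7.35%, 5.4% and 7.7%. It overlaps TGANTCA in part. Regions that held this element but lacked TGANTCA made up 4.41%, 5.4% and 10% (7.51 to 13) of all distal regions of each class. GGGCGGG, an SP and KLF element, stood in 10.8% of shared (6.88 to 15.9), 4.26% of PC-3-only and 3.4% of A549-only distal regions. In their flanking windows it stood in 1.72%, 2.27% and 1.9%. For each of these elements the intervals of PC-3-only and A549-only regions overlapped, also for TGACNNNGC without TGANTCA, where that of PC-3-only regions was 3.28 to 8.3.

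By library, motifs were counted in the peaks of distal line-only regions that met no peak of the other line. These were 292 peaks in each PC-3 library and 362 and 363 in A549 replicates 2 and 3. Such regions need a peak of both replicates. The libraries of a line were thus counted at much the same places, and their closeness is partly built in. TGTGGT, a RUNX element, stood in 18.5% of peaks in each PC-3 library and in 10.2% and 11.3% in A549. In the windows flanking distal PC-3-only and A549-only regions it stood in 12.6% and 13.1%. Over all distal regions of these classes it stood in 16.2% (12.5 to 20.5) and 12.4% (9.64 to 15.6), and these intervals overlapped. TGACNNNGC stood in 14.9% and 15.4% in A549 and in 12% and 10.6% in PC-3. The GATA-factor element AGATAA stood in 13.8% and 11.8% in A549 and in 9.93% and 9.59% in PC-3, near the 10.8% to 11.5% of the flanking windows. Over all distal PC-3-only and A549-only regions it stood in 9.94% (7.02 to 13.6) and 11.8% (9.11 to 15), and these intervals overlapped as well. The libraries of the lines did not overlap for these 3, which are named after their values were seen, nor for most of the others: they were apart for 9 of 13 elements (69.2%), 4 of them higher in PC-3 and 5 in A549. With 2 libraries a line the exact permutation test cannot pass 0.33. The E-box CACGTG (which contains ACGTG on both strands), the aryl hydrocarbon receptor element TNGCGTG (which contains GCGTG), the forkhead element TGTTTAC, the TEAD element CATTCC and the ETS element CCGGAAG were also counted. In the distal regions each stood in 1.8% to 20.5%, and for each the intervals of PC-3-only and A549-only regions overlapped.

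Line-only regions were spread unevenly over the chromosomes. Chromosome 9 held 42 A549-only and 6 PC-3-only regions, with 15 shared. Chromosome 11 held 21 A549-only and 44 PC-3-only regions, chromosome 8 held 53 and 26, and chromosome 18 held 17 and 3. Counts of all peaks leaned the same way: chromosome 9 held 4.64% and 5.51% of peaks in A549 and 2.11% and 2.39% in PC-3. Chromosome 11 held 5.03% and 3.7% against 6.24% and 6.5%. All peaks include those of the line-only regions, so this likeness is partly built in. Copy number was not measured here. AOPEP, on chromosome 9, and PDE4D, a phosphodiesterase gene of great length, each had 5 A549-only regions in or within 25 kb of the gene and no PC-3 site. NRP1, which encodes the semaphorin and VEGF co-receptor neuropilin-1, MYOF and NEK6 had 3 each. ITGB2, the β2 integrin gene of leukocytes, had 3 PC-3-only regions and no A549 site.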

How the data were processed

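HIF-1β ChIP-seq peak lists of PC-3 and A549 cells, 2 libraries each, were used as deposited. The intervals are on GRCh37 (hg19), and the score is the one that the authors deposited with each peak. The score column has no header, its lowest value was 50, and its scale is not given in the sources used here. The submitters' processing notes name Trim Galore 0.3.3, BWA 0.7.5a-r405, SAMtools 0.1.19, bedtools 2.17.0, Picard 1.106 and MACS. The study's methods kept peaks that T-PIC also called, which cannot be seen in the lists. Peaks were called per library, and scores were only ranked within a library. No reads were used, so the depth per sample is unknown.

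Regions were merged, classed and annotated in Python 3.11.15 with NumPy 2.4.6, SciPy 1.17.1 and pysam 0.24.0 against GENCODE 44 lifted to GRCh37 (20163 protein-coding genes on 24 chromosomes). Peaks off these chromosomes, at most 1 a library, had no annotation. The classing was tested on simulated lists. Merging needed 1 bp, promoters 2 kb, gene lists 25 kb and motifs the central 200 bp. Shares carry 95% exact binomial intervals. The genes named were those of the lists with a site, the 10 highest-ranked regions of each class and the 5 largest rank shifts in each direction. A few genes are not reported here. The members and lists were chosen with earlier results of these data known. Alternatives were another overlap, either replicate, the higher-scoring 50% or 1000 peaks, each library left out, joining at 1 kb, and other windows and starts. The authors' comparisons were not part of the files.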

Additional observations from a re-analysis of the deposited data

How the results depend on the processing

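The 13 results were recomputed under 15 alternatives, giving 138 values, of which 103 kept within the spread or within 1.5 times of a count, 34 moved and 1 reversed. The order of promoter shares, shared over PC-3-only over A549-only, held in all 12 alternatives that give it. The distance difference between A549-only and PC-3-only regions (18376 bp) kept its sign in all 11, and shared regions outranked line-only ones in both lines in all 9. With a peak of either replicate as a site, there were 951 shared, 2010 PC-3-only and 1039 A549-only regions, and the hypoxia genes with a site of PC-3 only and of A549 only numbered 7 and 0. With the higher-scoring 50% of each list, the classes held 212, 297 and 356 regions, 12.4% of A549-only regions were promoters, 7 hypoxia genes had a PC-3 site only, and the RCGTG difference between shared and line-only regions reversed from 8.51 to -1.34 percentage points. With 1000 peaks a list, 6 hypoxia genes had a PC-3 site only. With line-only regions free of any peak of the other line, 423 A549-only regions remained, 8.75% were promoters, and the distance difference was 29180 bp. A promoter of 500 bp gave 33.1% and 26% for shared and PC-3-only regions, and transcript starts gave 49.6%, 37.7% and 21.4% and a distance difference of 11576 bp. The causes were not tested.

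With each replicate left out in turn, shared regions numbered 410 to 613, PC-3-only 480 to 2277 and A549-only 428 to 1275. A549-only promoters were 9.58% to 17.3%, the distance difference 15640 to 27642 bp, the rank shares 0.668 to 0.776 in PC-3 and 0.601 to 0.694 in A549, and the RCGTG difference 8.23 to 15.6. Hypoxia genes with a PC-3 site only numbered 1 to 8 and with an A549 site only 0 to 7. The shifts over 1.5 times came without PC-3 replicate 1, which leaves every peak of the longest list as a site (613 shared, 2277 PC-3-only, 8 and 0 hypoxia genes), and without A549 replicate 3 (1275 A549-only, 1 hypoxia gene of PC-3 only, RCGTG difference 15.6). No paired analysis was possible because the lines share only replicate number 2 and no result comes from a fit. Peak lists without read counts limit what a missing peak can say.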
